A study of Saccharomyces cerevisiae with 44 samples.

Results

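The ribosomal DNA (rDNA) of budding yeast was examined at the resolution of the deposited tracks, as the 351 bins of 50 bp on chromosome XII between 451401 and 468950, out of 241434 bins on the 16 nuclear chromosomes. These bins were chosen by position alone and hold the 2 repeat copies of the assembly, onto which the reads of all genomic repeats fall. Replication was followed by quantitative BrdU incorporation (QBU), in which DNA made in the presence of the thymidine analog BrdU is immunoprecipitated and sequenced (IP) beside the unselected DNA of the same culture (Total). Of the 40 QBU libraries, 4 came from each of dbf4∆C, dbf4-Zn*1, dbf4-Zn*2, fkh1∆ dbf4-Zn*1, fkh1∆ dbf4-Zn*2, fkh1∆, fkh1∆ fkh2-dsm, ctf19∆, ctf19∆ fkh1∆ fkh2-dsm and WT, as an IP and a Total of 2 replicates. Another 4 libraries were ChIP-seq of FLAG-dbf4-aaHH and FLAG-Dbf4, with 2 replicates each.

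Dbf4 is the regulatory subunit of DDK, the kinase that switches on licensed replication origins, and the alleles either lack the C-terminal domain (dbf4∆C) or carry point changes in its zinc finger (dbf4-Zn*1, also written AAHH, and dbf4-Zn*2, written CCHC). Fkh1 and Fkh2 are forkhead transcription factors that stimulate a class of early origins, and fkh2-dsm is a dimerization mutant of Fkh2. Ctf19 is a kinetochore protein that recruits Dbf4 to centromeres. All strains were of the W303 background, and the QBU strains took up BrdU through an inserted BrdU-Inc cassette, which was at leu2 in dbf4-Zn*1, dbf4-Zn*2, both fkh1∆ dbf4-Zn* strains and WT, and at ura3 in dbf4∆C, fkh1∆, fkh1∆ fkh2-dsm, ctf19∆ and ctf19∆ fkh1∆ fkh2-dsm. For the ura3 strains, cassette and genotype cannot be told apart in a comparison with WT. Cells were held in G1 with α-factor at 23 °C and released into 400 µg/mL BrdU and 200 mM hydroxyurea (HU), which slows forks close to their origins. The labels give 60 min in HU for all strains, while a figure legend of the study gives a longer time for dbf4∆C. For ChIP-seq, G1-arrested cells carried the FLAG tag at the N-terminus of Dbf4, and the strain numbers in the labels are swapped between the alleles relative to the study's text. Nothing in the sources states that replicates were separate cultures, so p-values measure only the spread between these samples.

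Each rDNA repeat carries the genes of the ribosomal RNAs and 1 potential replication origin, the rARS. The 35S precursor (25S, 5.8S and 18S with their spacers) is transcribed by RNA polymerase I and the small 5S gene by RNA polymerase III, and they are parted by the nontranscribed spacers NTS1 and NTS2. The rARS lies in NTS2, between the 5S gene and the start of the 35S gene, and only a minority of rARS copies fire in any S phase. NTS1 holds the replication fork barrier, where Fob1 arrests forks that would run head-on into the 35S gene, so that replication of the array is largely one-directional and follows 35S transcription.

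On the annotation used here (R64), the lower-coordinate copy has its 35S gene (RDN37-1) on the minus strand from 451575 to 458432, so that transcription runs from high to low coordinates. NTS2 follows from 458433 to 459675, the 5S gene (RDN5-1) from 459676 to 459796 and NTS1 from 459797 to 460711, where the 35S gene of the next copy (RDN37-2) ends. The repeat is 9137 bp long, so both copies were pooled by a shift of 9150 bp into 183 bins, of which 15 bins, in NTS1, were covered in 1 copy only. The sides of the origin are named here by what they hold: the 35S side (lower coordinates, with the 5′ ETS and 18S) and the NTS1 side (higher coordinates, with 5S, NTS1 and then the 25S end of the next 35S gene).

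Library totals were 281531 to 13959837 bin counts for IP and 435781 to 33840380 for Total, and the rDNA took 4.12% to 10.2% of IP counts and 8.13% to 12.7% of Total counts. No rDNA bin was empty in any library. Counts in a bin were divided by the mean bin outside the rDNA of the same library and IP was then divided by Total, so that a value of 1 is the BrdU signal of the average bin outside the rDNA. Total itself gave an estimate of repeats per genome of 120.3 ± 5.1 in dbf4∆C, 124 ± 3.1 in ctf19∆ and 134 ± 1.6 in ctf19∆ fkh1∆ fkh2-dsm, and of 151 ± 8.5 to 184 ± 11 in the other mutants, against 163 ± 4.6 in WT (SD, n = 2 each). Dividing by Total removes these differences from the level, but it does not show how many repeats fired. The 2 assembly copies gave the same profile, with a correlation over 168 shared bins of 0.923 to 0.997 in 19 of the 20 cultures and of 0.766 in replicate 2 of fkh1∆ fkh2-dsm, whose libraries were the shallowest. Lone reads covered 3.75 to 4.33 bins in the IP libraries of the fkh1∆ dbf4-Zn* strains and 2.33 to 2.61 bins in all other IP libraries, so that for sharp features of those 2 strains read length and genotype cannot be told apart.

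In all 20 cultures the BrdU signal had 2 maxima, a broad one in NTS2 and a narrow one in NTS1. The mean profile over the cultures peaked in NTS2 at 459051 to 459100, which is 644 bp before the start of the 35S gene and where the rARS is known to lie, and each culture's own NTS2 maximum (250-bp running mean) fell between 50 bp on the 35S side and 100 bp on the NTS1 side of it. In none of the 10 genotypes did this maximum lie more than 2 bins away. The search was confined to NTS2 and the common peak came from these same cultures, so part of this closeness was built in. The narrow maximum in NTS1 lay 950 bp away at 460001 to 460050, 205 bp past the 5S gene, and was the highest single bin of the repeat in each culture (1 bin further in the 4 cultures of the fkh1∆ dbf4-Zn* strains). When the profile was instead smoothed by a 1-kb running median, the highest point lay 250 to 350 bp on the 35S side in both WT, fkh1∆ and ctf19∆ cultures and in 1 of 2 ctf19∆ fkh1∆ fkh2-dsm cultures, and 0 to 750 bp on the NTS1 side in the other 13 cultures.

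**Figure D1:**
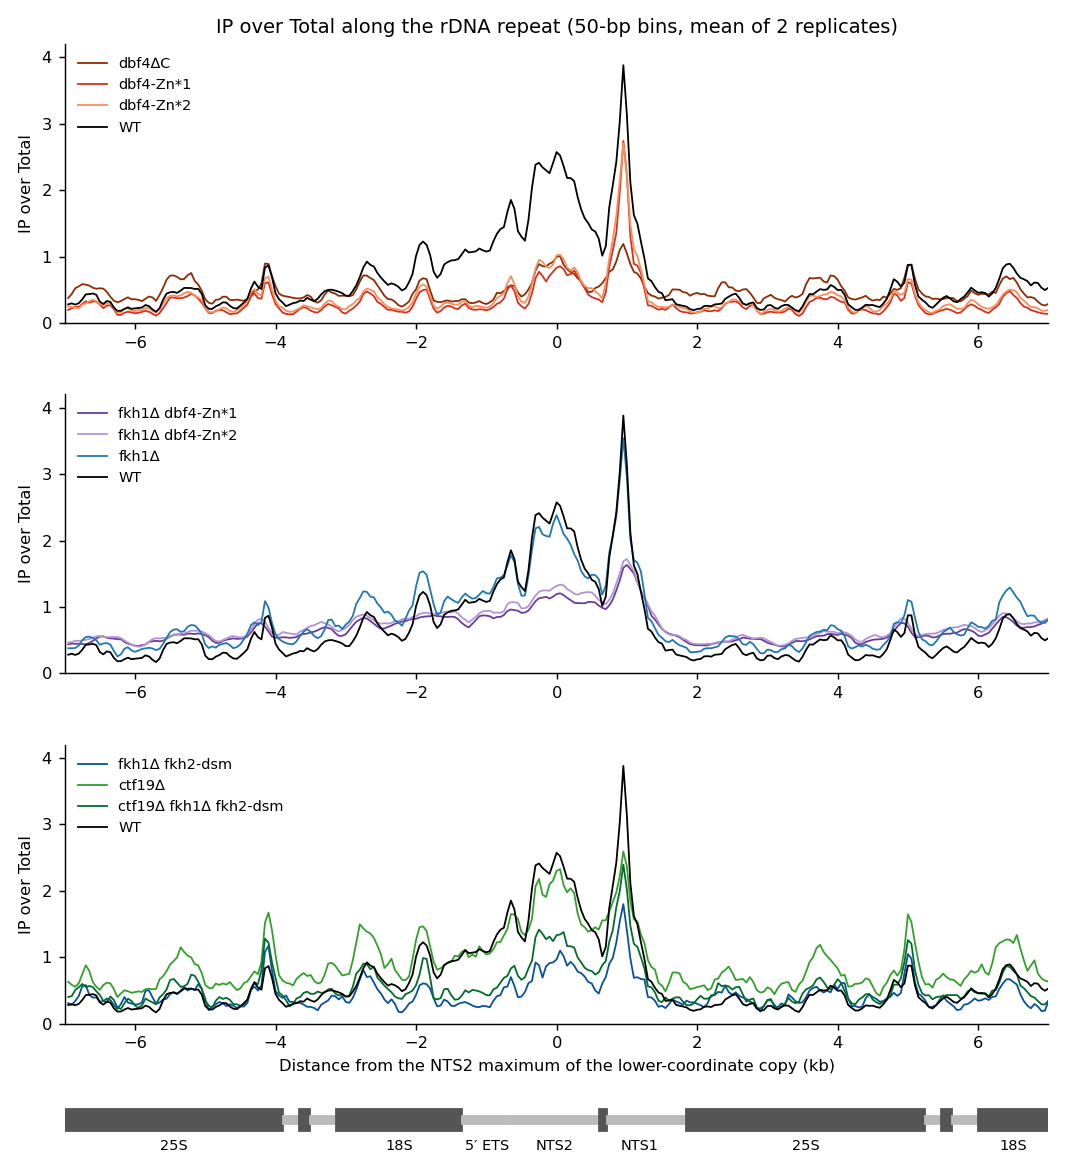
IP over Total per 50-bp bin (vertical axes, mean of 2 replicates) against the distance in kb from the NTS2 maximum of the lower-coordinate copy, for the dbf4 alleles (top), the fkh1∆ strains (middle) and the fkh2-dsm and ctf19∆ strains (bottom), each beside WT in black, with the parts of the repeat drawn underneath. The broad NTS2 maximum stands at 0 and the narrow NTS1 maximum at 950 bp, and WT falls to a minimum in the 25S gene.

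WT had a level of 2.56 and 2.36 at the NTS2 maximum in replicates 1 and 2, and of 4.13 and 3.63 in the highest NTS1 bin. From there to the lowest stretch, in the 25S gene, WT fell to 0.206 and 0.222, so that the NTS2 maximum stood 11.5 ± 1.2 times above the minimum (SD, n = 2). By parts of the repeat, WT averaged 1.96 ± 0.12 in NTS2, 1.14 ± 0.21 in the 5S gene, 1.24 ± 0.08 in the 5′ ETS, 0.769 ± 0.053 in 18S and 0.352 ± 0.005 in 25S (SD, n = 2). The signal thus declined along the 35S gene in the direction of its transcription. Within 25S it was lowest towards the 3′ end, at 0.284 ± 0.012 over the third of the gene nearest the 3′ end and 0.404 ± 0.018 over the third nearest the 5′ end.

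The 2 sides of the origin differed in how they declined. In steps of 500 bp, WT had 2.48 and 2.25 at the NTS2 maximum, then 1.22 and 1.14 at 1 kb, 0.908 and 0.817 at 2 kb and 0.550 and 0.464 at 3 kb on the 35S side. On the NTS1 side it still had 2.45 and 2.07 at 1 kb, where the NTS1 maximum lies, but 0.239 and 0.256 at 2 kb and 0.229 and 0.257 at 3 kb. The BrdU signal therefore ended within 2 kb on the side of the fork barrier and trailed over several kb on the side into the 35S gene. An asymmetry was computed as the log2 of summed IP over summed Total 0.5 to 2.5 kb out on the 35S side over the same on the NTS1 side. It was 0.11 and 0.13 in WT, where the NTS1 maximum lies inside the other flank. Most bins were summed over 2 copies, but 15 bins in NTS1 over 1 copy. On the lower-coordinate copy alone the asymmetry was -0.17 and -0.14 in WT. It also depended on the distance: it was -0.35 for 0.5 to 1.5 kb and 1.27 for 1.5 to 3.5 kb, a distance that was chosen after the profile was seen.

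**Figure D2:**
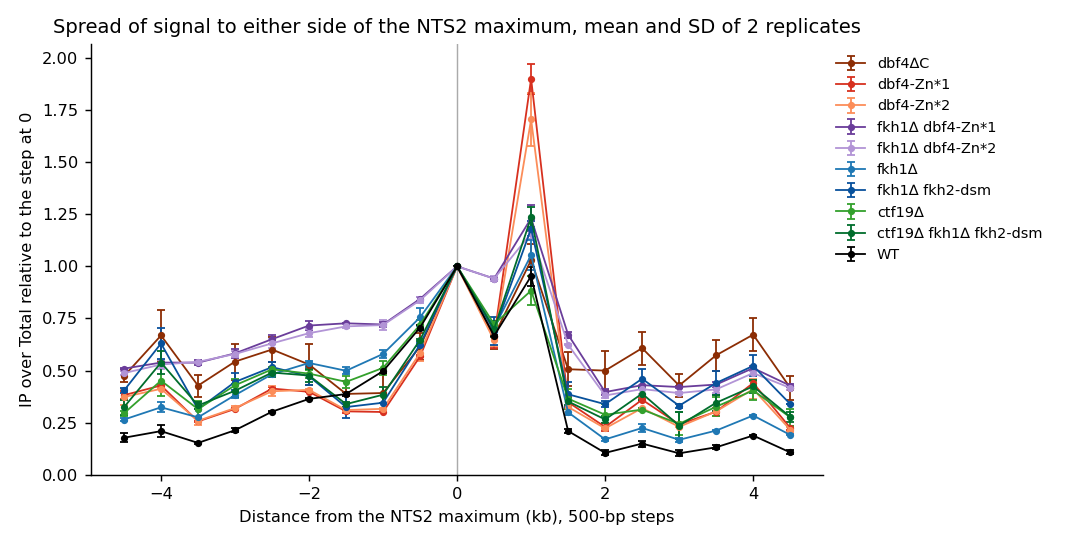
IP over Total in 500-bp steps relative to the step at 0 (vertical axis; points, mean of 2 replicates; bars, SD) against the distance in kb from the NTS2 maximum, with the 35S side at negative and the NTS1 side at positive distances. On the 35S side WT, fkh1∆, ctf19∆ and the fkh1∆ dbf4-Zn* strains decline slowly. There dbf4∆C, dbf4-Zn*1, dbf4-Zn*2, fkh1∆ fkh2-dsm and ctf19∆ fkh1∆ fkh2-dsm drop further within 1 kb. At 1 kb on the NTS1 side the mean of every strain but WT and ctf19∆ exceeds its own NTS2 level, by the most in dbf4-Zn*1 and dbf4-Zn*2.

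To ask where along the repeat each genotype differed from WT, counts were summed over 450-bp tiles of the whole genome and the change of IP over Total was tested with edgeR's quasi-likelihood test, with Benjamini-Hochberg adjustment over 26748 tiles, of which 39 are rDNA tiles (16 in 25S, 8 in 18S, 6 in NTS2, 4 in the 5′ ETS, 3 from ITS1 to ITS2 and 2 in NTS1). Called means an adjusted p under 0.05. The 2 assembly copies share the reads of all repeats, so tiles at the same place of both copies are not independent. Outside NTS1, the tile counts thus largely count each place 2 times. The level is relative to the mean of the genome, and this reference moves where other origins change: the median change over all tiles was 0.98 in dbf4∆C, 0.60 in ctf19∆, 0.54 in ctf19∆ fkh1∆ fkh2-dsm, 0.35 in fkh1∆ fkh2-dsm, 0.20 to 0.30 in the 3 other fkh1∆ strains, -0.24 in dbf4-Zn*1 and -0.10 in dbf4-Zn*2 (log2). Counts under TMM scaling, which brought this median to between -0.21 and 0.13, are therefore given beside those under the mean, and so are counts with the rDNA total of each library as its size, which ask only how the signal is shared out within the repeat.

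dbf4∆C lost BrdU signal around the origin, while its 25S gene was higher than in WT relative to the mean of the genome but not under TMM, where 6 of its 16 tiles were lower. At the NTS2 maximum its level was 0.958 and 0.865, against 2.56 and 2.36 in WT, and the 2 groups did not overlap. The 5′ ETS was at 0.370 ± 0.038 in dbf4∆C and 1.24 ± 0.08 in WT, and 25S at 0.481 ± 0.034 in dbf4∆C and 0.352 ± 0.005 in WT (SD, n = 2 each). All 6 NTS2 tiles, all 4 tiles of the 5′ ETS and 6 of 8 tiles of 18S were lower than in WT, with median log2 changes of -1.50, -1.72 and -0.66, while 14 of 16 tiles of 25S were higher, with a median of 0.49. In all, 17 tiles were lower and 15 higher, where the whole genome had 10.5% lower and 43.6% higher. Under TMM 29 were lower and 0 higher, so that the higher level of 25S is relative to the mean of the genome, and within the repeat 13 were lower and 24 higher. The profile was flat, with an NTS2 maximum 3.18 ± 0.83 times the minimum, against 11.5 ± 1.2 times in WT (SD, n = 2 each). If dbf4∆C cells were held longer in HU, as the study's figure legend states, time and genotype cannot be told apart here.

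dbf4-Zn*1 and dbf4-Zn*2 lost more signal in NTS2, the 5′ ETS and 18S than in NTS1 and 25S. The NTS2 maximum of dbf4-Zn*1 cells reached 0.774 and 0.835, that of dbf4-Zn*2 cells 0.949 and 0.966 and that of WT cells 2.56 and 2.36. The 5′ ETS fell to 0.276 ± 0.017 with dbf4-Zn*1 and to 0.340 ± 0.001 with dbf4-Zn*2, against 1.24 ± 0.08 in WT (SD, n = 2 each). The 18S gene was at 0.266 ± 0.014 with dbf4-Zn*1 and at 0.326 ± 0.009 with dbf4-Zn*2, against 0.769 ± 0.053 in WT. Both alleles thus had a low plateau from the 5′ ETS onwards where WT had a slope. In the tile test of dbf4-Zn*1 all 39 tiles were lower and 0 higher, where the whole genome had 9.38% lower and 9.08% higher. For dbf4-Zn*2 the test called 27 lower and 0 higher, beside 8.57% lower and 9.63% higher genome-wide. The median log2 change was -2.16 in the 5′ ETS, -1.74 in NTS2, -1.33 in 18S, -0.79 in NTS1 and -0.47 in 25S for dbf4-Zn*1, and -1.86, -1.44, -1.10, -0.62 and -0.25 in the same order for dbf4-Zn*2. TMM called 26 tiles lower for the first allele and 24 for the second, the NTS2, 5′ ETS and NTS1 tiles all among them in both, and 3 and 1 of the 25S tiles.

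Within the repeat, both zinc-finger alleles had a larger share of their signal in NTS1. The highest NTS1 bin of dbf4-Zn*1 had 2.67 and 2.81, that of dbf4-Zn*2 had 2.90 and 2.51 and that of WT had 4.13 and 3.63. Outside the 250 bp about this bin, NTS1 had 0.515 ± 0.023 with dbf4-Zn*1 and 0.603 ± 0.012 with dbf4-Zn*2, against 0.990 ± 0.102 in WT (SD, n = 2 each). The mean of 550 bp about the NTS1 maximum over that about the NTS2 maximum was 1.84 ± 0.06 with dbf4-Zn*1 and 1.67 ± 0.12 with dbf4-Zn*2, against 0.940 ± 0.048 in WT, and no culture of any other strain exceeded 1.26. With the rDNA total as library size, 12 tiles were lower and 21 higher than in WT for dbf4-Zn*1, and 12 and 22 for dbf4-Zn*2. Both NTS1 tiles were higher in both alleles, 5 of 6 NTS2 tiles and all 4 of the 5′ ETS were lower, and all 16 of 25S were higher. The asymmetry was -0.99 ± 0.03 with dbf4-Zn*1 and -0.84 ± 0.04 with dbf4-Zn*2, against 0.12 ± 0.02 in WT, a difference of -1.11 and -0.96 for which 2 against 2 cultures allow no exact two-sided p under 0.33.

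The 2 zinc-finger alleles were not told apart by the tile test. Of the 39 tiles, 0 were called between dbf4-Zn*2 and dbf4-Zn*1 by edgeR's quasi-likelihood test or by DESeq2, and 0 of 26748 over the whole genome (0%). At an unadjusted p under 0.05 there were 28 rDNA tiles, and the log2 changes of dbf4-Zn*2 over dbf4-Zn*1 ran from 0.09 to 0.39 with a median of 0.26. Over all tiles of the genome the median was 0.10.

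**Figure D3:**
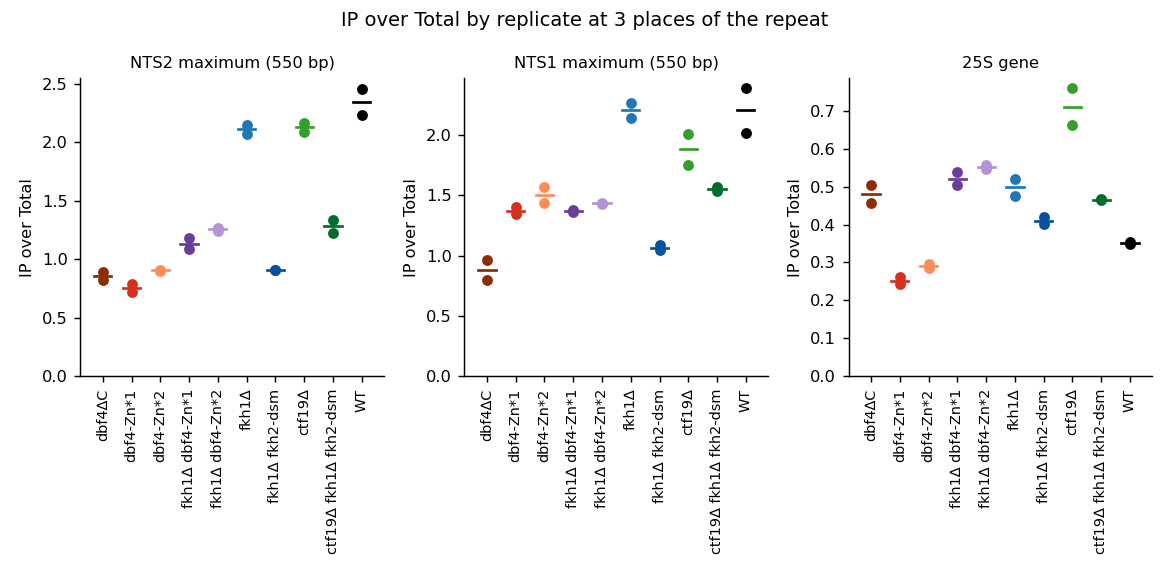
IP over Total in each replicate (points; bars, mean of 2) in the 550 bp about the NTS2 maximum, the 550 bp about the NTS1 maximum and the 25S gene, for 9 mutant strains with WT at the right. At the NTS2 maximum fkh1∆, ctf19∆ and WT stand above 2 and every other strain below 1.4, whereas in 25S the dbf4-Zn*1 and dbf4-Zn*2 cultures are the lowest and the ctf19∆ cultures the highest.

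Deletion of FKH1 alone left the NTS2 maximum near the WT level and raised the signal in the body of the 35S gene relative to the mean of the genome, though in 25S this held for 1 of 16 tiles under TMM (median 0.27). At the NTS2 maximum fkh1∆ had 2.14 and 2.27, against 2.56 and 2.36 in WT, with no overlap, and its highest NTS1 bin had 3.80 and 3.29, which overlaps with 4.13 and 3.63 in WT. The 25S gene was at 0.477 and 0.520 in fkh1∆, against 0.348 and 0.355 in WT. In the tile test 26 tiles were higher and 0 lower, where the whole genome had 6.82% higher and 3.33% lower. These were all 16 tiles of 25S, 6 of 8 of 18S, all 3 from ITS1 to ITS2 and 1 of NTS1, and none of the 10 tiles of NTS2 and the 5′ ETS was called. The number depended on the scaling, since TMM called 3 higher and 2 lower and DESeq2 1. It also fell whenever 1 culture pair of either strain was left out. The median log2 change over the rDNA was then 0.39 to 0.49, beside 0.45 with all pairs. With the rDNA total as library size 18 were higher and 2 lower.

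In zinc-finger mutant cells, by contrast, deletion of FKH1 went with a higher signal in NTS2 and the 5′ ETS. In NTS1 the 50-bp bin at 950 bp was lower, but the 550 bp about it were not beyond the spread of the replicates. For so sharp a feature of these strains read length and genotype cannot be told apart. The NTS2 maximum of fkh1∆ dbf4-Zn*1 had 1.12 and 1.2, against 0.774 and 0.835 in dbf4-Zn*1, and that of fkh1∆ dbf4-Zn*2 had 1.31 and 1.27, against 0.949 and 0.966 in dbf4-Zn*2. The 5′ ETS of fkh1∆ dbf4-Zn*1 was at 0.829 ± 0.044, against 0.276 ± 0.017 for dbf4-Zn*1 alone, and that of fkh1∆ dbf4-Zn*2 at 0.916 ± 0.009, against 0.340 ± 0.001 for dbf4-Zn*2 alone (SD, n = 2 each). Against the zinc-finger strain itself, 38 of 39 tiles were higher and 0 lower for each allele, where the whole genome had 13.2% higher and 7.6% lower for dbf4-Zn*1 and 14.7% higher and 8.68% lower for dbf4-Zn*2. The median changes over the rDNA were 1.32 and 1.16, while the medians over all tiles were 0.42 and 0.37. TMM called 32 higher and 0 lower in both. With the rDNA total as library size the split was 19 higher and 7 lower for dbf4-Zn*1 and 18 higher and 8 lower for dbf4-Zn*2, with 6 of 8 tiles of 18S and 3 of 4 of the 5′ ETS higher in each. The NTS1 bin at 950 bp was at 1.59 ± 0.02 in fkh1∆ dbf4-Zn*1, against 2.74 ± 0.10 in dbf4-Zn*1, and at 1.69 ± 0.02 in fkh1∆ dbf4-Zn*2, against 2.71 ± 0.28 in dbf4-Zn*2 (SD, n = 2 each). The 550 bp about it averaged 1.37 ± 0.01 in fkh1∆ dbf4-Zn*1, against 1.38 ± 0.04 in dbf4-Zn*1, and 1.43 ± 0.01 in fkh1∆ dbf4-Zn*2, against 1.5 ± 0.10 in dbf4-Zn*2, differences within the spread of the replicates.

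The effect of the FKH1 deletion in dbf4-Zn* cells differed from its effect in WT cells in the test of that difference, with 32 tiles higher for dbf4-Zn*1 (2.84% of the whole genome) and 30 for dbf4-Zn*2 (2.93%) and 0 lower for both, where the whole genome had 4.36% and 5.11% lower. Under TMM there were 27 and 23, and under DESeq2 29 and 20. With the rDNA total as library size 7 tiles were higher and 8 lower for dbf4-Zn*1, and 5 higher and 8 lower for dbf4-Zn*2, with 4 and 3 of the 4 tiles of the 5′ ETS higher and 6 tiles of 25S lower in each. Read length also differed between the fkh1∆ dbf4-Zn* strains and the others, as given above, and its part in the wider profile was not tested. Total itself differed in places. In the 5S gene it was 107.7 ± 7.2 in fkh1∆ dbf4-Zn*1 and 107.0 ± 2.9 in fkh1∆ dbf4-Zn*2 (SD, n = 2 each). The other strains ranged from 52.9 in dbf4∆C to 80.4 in dbf4-Zn*2. Of the strains in this test only fkh1∆ has the cassette at ura3, so cassette and genotype cannot be told apart.

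Against WT, the fkh1∆ dbf4-Zn* strains were lower in NTS2 and higher in 25S. All 6 NTS2 tiles were lower in both, with medians of -0.90 for dbf4-Zn*1 and -0.73 for dbf4-Zn*2, and 14 and 15 of 16 tiles of 25S were higher, with medians of 0.67 and 0.75. The fkh1∆ dbf4-Zn*1 test called 11 tiles lower and 21 higher (11.5% and 15.5% of the whole genome), and the fkh1∆ dbf4-Zn*2 test 10 lower and 22 higher (10.4% and 16.7%). TMM gave 12 lower and 13 higher tiles for the first strain and 11 against 14 for the second. Within the repeat, both strains had 8 lower and 24 higher tiles. Their NTS2 maximum stood 2.78 ± 0.02 and 3.02 ± 0.03 times above the minimum, against 11.5 ± 1.2 times in WT. The distance at which the level had dropped to 50% of the NTS2 maximum was 3700 to 3750 bp on the 35S side in these 4 cultures, against 900 and 1000 bp in WT. This distance also depends on the minimum, so it is no plain measure of spread. The mean maximum and minimum were 1.16 and 0.419 in fkh1∆ dbf4-Zn*1 and 1.29 and 0.426 in fkh1∆ dbf4-Zn*2, against 2.46 and 0.214 in WT.

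In fkh1∆ fkh2-dsm, which lacks both forkhead functions, NTS2 and the 5′ ETS were lower than in WT. The NTS2 maximum of fkh1∆ fkh2-dsm had 0.943 and 0.998, against 2.14 and 2.27 in fkh1∆ and 2.56 and 2.36 in WT. The 5′ ETS was at 0.359 ± 0.005 in fkh1∆ fkh2-dsm, against 1.3 ± 0.01 in fkh1∆ and 1.24 ± 0.08 in WT (SD, n = 2 each). Compared with WT, 20 tiles were lower and 6 higher, where the whole genome had 3.59% lower and 6.54% higher, and they included all 6 of NTS2 and all 4 of the 5′ ETS as lower, with medians of -1.41 and -1.79. The 6 higher tiles, all in 25S, became 0 without WT replicate 1, without fkh1∆ fkh2-dsm replicate 2 or under TMM, which called 27 lower, and 2 or 3 without the other replicate of either strain. With the rDNA total as library size 10 were lower and 24 higher, among them 5 of 6 tiles of NTS2 as lower and all 16 of 25S as higher. Compared with fkh1∆, 24 were lower and 0 higher (1.51% and 1.5% of the whole genome), under TMM 33 and 0, and within the repeat 11 and 17. Hence fkh1∆ and fkh1∆ fkh2-dsm, which share the FKH1 deletion and the ura3 cassette, differed in NTS2 and the 5′ ETS.

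In ctf19∆ cells the 25S gene gained signal, while NTS2 had no tile called relative to the mean of the genome and was lower under TMM (median -0.72). At the NTS2 maximum ctf19∆ had 2.28 and 2.23, against 2.56 and 2.36 in WT, and in 25S it had 0.662 and 0.760, against 0.348 and 0.355 in WT, the highest 25S level of the 10 strains. The highest NTS1 bin was lower, at 2.77 and 2.41, against 4.13 and 3.63 in WT. In the tile test 26 were higher and 0 lower, where the whole genome had 9.12% higher and 3.16% lower, with all 16 tiles of 25S higher (median 1.09) and 0 of the 10 in NTS2 and the 5′ ETS called. This split turned with the scaling: TMM called 13 lower, among them the 6 of NTS2 and 4 of the 5′ ETS, and 9 higher, and within the repeat 7 were lower and 24 higher. Scaling shifts all tiles of a strain by nearly the same amount. It therefore leaves their order unchanged by construction, with 25S above NTS2 in the change from WT.

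The triple mutant ctf19∆ fkh1∆ fkh2-dsm lay between fkh1∆ fkh2-dsm and ctf19∆. Its NTS2 maximum had 1.39 and 1.27, against 0.943 and 0.998 in the forkhead double mutant, 2.28 and 2.23 in ctf19∆ and 2.56 and 2.36 in WT. Compared with WT, 15 tiles were lower and 12 higher, where the whole genome had 5.03% lower and 14.9% higher, with all 6 of NTS2 (median -0.87) and 4 of the 5′ ETS (median -1.19) lower, under TMM 24 were lower and 0 higher, and within the repeat 10 were lower and 24 higher. The 12 higher tiles became 6 and 7 without replicate 1 and 2 of the triple mutant and 7 without WT replicate 1. Compared with fkh1∆ fkh2-dsm, 20 were higher and 0 lower (0.553% and 2.33% of the whole genome), but 6 under TMM, 2 under DESeq2 and 0 within the repeat. Compared with ctf19∆, all 39 were lower and 0 higher (3.84% and 5.65% of the whole genome), 38 and 0 under TMM, and 6 and 1 within the repeat, where 4 of the 6 were in the 5′ ETS.

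The effect of the CTF19 deletion in fkh1∆ fkh2-dsm cells minus that in WT cells gave 14 tiles lower and 8 higher (0.456% and 0.426% of the whole genome). Of the strains in this test only WT has the cassette at leu2, so cassette and genotype cannot be told apart. The lower ones became 0 under TMM and DESeq2, which called 14 higher each. The within-repeat test called 18 lower, 15 of them in 25S, and 3 higher. The settings move all tiles by nearly the same amount. A relative shift of this effect from 25S towards NTS2 and the 5′ ETS was therefore bound to recur in them. The sign against the rest of the genome differed between them.

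**Figure D4:**
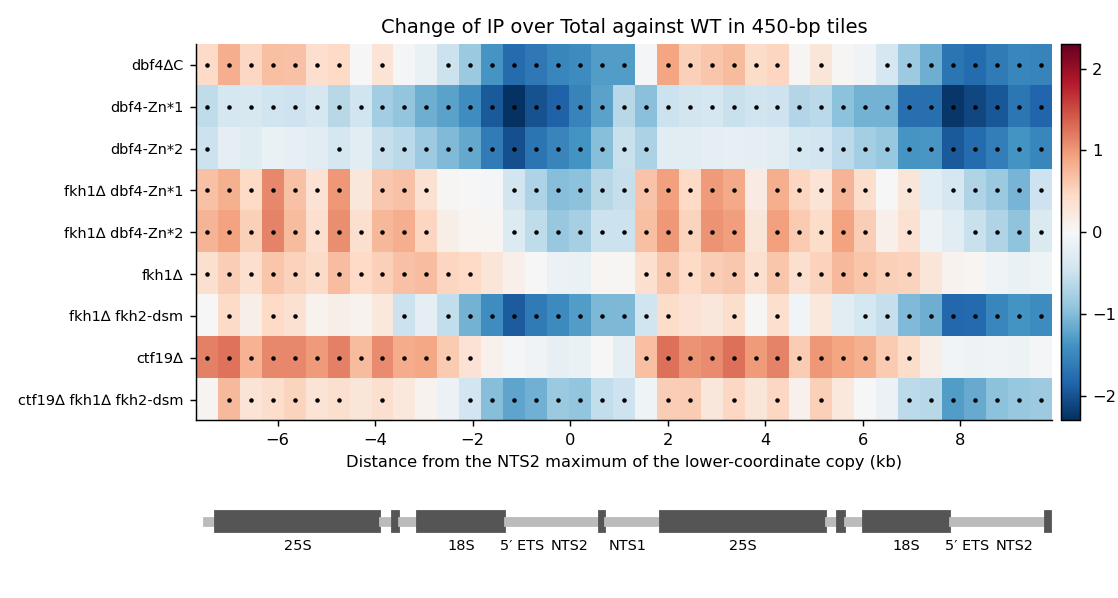
Log2 change of IP over Total against WT (colour; red, higher in the mutant; blue, lower) in 39 tiles of 450 bp along the region, with distance in kb from the NTS2 maximum of the lower-coordinate copy, for 9 mutant strains from top to bottom. Dots mark tiles with an adjusted p under 0.05. The tiles of NTS2 and the 5′ ETS are blue and dotted in dbf4∆C, dbf4-Zn*1, dbf4-Zn*2, fkh1∆ fkh2-dsm and ctf19∆ fkh1∆ fkh2-dsm. This holds in both assembly copies, which share their reads. The tiles of 25S are red in ctf19∆ and fkh1∆, of which 8 and 1 of 16 stayed higher under TMM.

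The tiles with the highest and the lowest mean over all 20 cultures show both ends of this range, although in WT, fkh1∆, ctf19∆ and dbf4∆C a tile of NTS2 was higher. The highest, at 459951 to 460400 in NTS1, holds the narrow maximum, and its level was 0.828 ± 0.095 in dbf4∆C, 0.982 ± 0.035 in fkh1∆ fkh2-dsm, 1.3 ± 0.05 with dbf4-Zn*1 and 1.40 ± 0.11 with dbf4-Zn*2, against 2.01 ± 0.21 in WT (SD, n = 2 each). The log2 change was -1.28 ± 0.09 in dbf4∆C (SE; adjusted p = 6.6e-22, edgeR's quasi-likelihood test) and -0.63 ± 0.09 in dbf4-Zn*1 (adjusted p = 1.9e-08), and 0.03 ± 0.09 in fkh1∆ (adjusted p = 0.91). The lowest, at 452751 to 453200 in 25S, had 0.475 ± 0.1 in ctf19∆, 0.465 ± 0.022 in fkh1∆ dbf4-Zn*1 and 0.474 ± 0.006 in fkh1∆ dbf4-Zn*2, against 0.216 ± 0.004 in WT. Its log2 change was 1.10 ± 0.13 in ctf19∆ (adjusted p = 3.1e-11) and -0.45 ± 0.13 in dbf4-Zn*1 (adjusted p = 0.0046).

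The level on the 35S side of the origin differed between the strains. The 35S-side flank from 0.5 to 2.5 kb averaged 1.18 ± 0.01 in fkh1∆, 1.08 ± 0.01 in ctf19∆, 0.895 ± 0.003 in fkh1∆ dbf4-Zn*2 and 0.826 ± 0.043 in fkh1∆ dbf4-Zn*1, against 1.02 ± 0.08 in WT (SD, n = 2 each). In ctf19∆ fkh1∆ fkh2-dsm it averaged 0.538 ± 0.008, in dbf4∆C 0.394 ± 0.045, in fkh1∆ fkh2-dsm 0.368 ± 0.021, in dbf4-Zn*2 0.335 ± 0.006 and in dbf4-Zn*1 0.268 ± 0.012. The asymmetry, which does not depend on the scaling, was -0.66 and -0.42 in dbf4∆C, -0.55 and -0.65 in fkh1∆ fkh2-dsm and -0.53 and -0.47 in ctf19∆ fkh1∆ fkh2-dsm, against 0.11 and 0.13 in WT. In fkh1∆ it was 0.19 and 0.17, in ctf19∆ -0.02 and -0.0033, and in the fkh1∆ dbf4-Zn* strains -0.02 to 0.06. With flanks of 1.5 to 3.5 kb, beyond the NTS1 maximum, every culture had more signal on the 35S side, from 0.05 in both dbf4∆C cultures to 1.33 and 1.16 in fkh1∆ and 1.39 and 1.16 in WT.

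Smaller maxima recurred at the same places of the 35S gene in the mean profile. They lay in 25S at 452351, 453801 and 454951 and in 18S at 456351 and 457151, with minima between them. The largest within 25S, at 454951, falls in TAR1, a small gene antisense to 25S (454696 to 455070), and its level ranged from 0.492 to 1.72 over the cultures with 0.787 in WT. The neighbouring minimum at 455251 in ITS2 ranged from 0.134 to 0.666. The other annotated genes of the region, YLR154C-G (462522 to 462671, within the second 25S) and YLR154C-H (468827 to 468958, over the second 5S), share these reads. The first and last 8 bins of the region had less Total than the same bins of the other copy (77.6 and 81.8 against 99.4 and 102 in WT at the lower edge), but their IP over Total was 0.311 and 0.345 against 0.319 and 0.331. Total dropped further there in fkh1∆ dbf4-Zn*1 (mean 51.2 against 106.8) and fkh1∆ dbf4-Zn*2 (50.9 against 106.6). Their mean IP over Total was 0.524 against 0.579 and 0.558 against 0.586.

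Outside the rDNA, 114 origins were located as maxima of the mean IP profile with a level of at least 2. Weak origins were left out by this minimum, so the place of the rDNA origin among them was partly fixed beforehand. In WT the 550 bp about the NTS2 maximum had 2.46 and 2.23, against a median of 7.49 and 8.19 at the other origins, and 5 of the 114 lay below it in each culture. The ratio of NTS2 to the median origin was 0.794 ± 0.006 in dbf4∆C, 0.520 ± 0.001 in ctf19∆, 0.425 ± 0.041 in fkh1∆, 0.313 ± 0.022 with dbf4-Zn*2, 0.279 ± 0.023 with dbf4-Zn*1 and 0.207 ± 0.001 in fkh1∆ fkh2-dsm, against 0.300 ± 0.039 in WT (SD, n = 2 each). In dbf4∆C this came with a median of 1.08 ± 0.06 at the other origins, against 7.84 ± 0.49 in WT. At 1.5 to 3.5 kb the asymmetry of the rDNA in WT was larger in size than that of 110 and 97 of the 114 origins. These origins were located on the libraries of all strains, so the counts are a description.

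Dbf4 ChIP-seq in G1 cells gave no peak over the rDNA origin. The rDNA held 55.1% and 60.6% of fragments in FLAG-dbf4-aaHH and 50.4% and 66.7% in FLAG-Dbf4, at 843 and 1057 and at 697 and 1376 times the level of the average bin outside, whereas the Total libraries of QBU had 60.8 to 99.6 times. Between 94.4% and 95.5% of read ends in the rDNA had a mapping quality of 1, against 6.5% to 8.46% outside, and fragments with the same 2 ends made up 0.0892% to 0.216% of those in the rDNA. No input library was used here, so enrichment over input cannot be given, and only the shape along the repeat is described.

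Along the repeat the 4 ChIP libraries had one shape, with a trough in NTS2 and a plateau over the 35S gene. The scale is per assembly copy, and most of NTS1 has 1 copy where the rest of the repeat has 2. The lowest 250-bp window was centred on the bin that begins at 458651, 400 bp from the NTS2 maximum towards the 35S gene, in all 4 libraries. It had 0.514 and 0.580 of the repeat mean in FLAG-dbf4-aaHH and 0.496 and 0.476 in FLAG-Dbf4. The highest lay in 18S or the 5′ ETS, at 1.33 and 1.25 in FLAG-dbf4-aaHH and 1.25 and 1.27 in FLAG-Dbf4. NTS2 had 0.637 and 0.705 in FLAG-dbf4-aaHH, against 0.645 and 0.613 in FLAG-Dbf4, with overlap. NTS1 had 0.907 and 0.893 in FLAG-dbf4-aaHH, against 0.837 and 0.762 in FLAG-Dbf4, and 25S had 1.03 and 1.03 in FLAG-dbf4-aaHH, against 1.07 and 1.09 in FLAG-Dbf4. The WT Total profile did not have this trough, with 1.09 in NTS2 and 1.62 in NTS1, where reads of all repeats fall on the 1 copy of the assembly. The ChIP levels of NTS1 come from the same 1 copy, so they cannot be set directly against those of NTS2. At 800 bp on the NTS1 side ChIP had 0.673 and 0.647 in FLAG-dbf4-aaHH and 0.583 and 0.540 in FLAG-Dbf4, where WT Total had 1.32. A low ChIP level relative to Total was thus not confined to NTS2. Over the 183 bins, which share reads and base composition, the ChIP profiles correlated with each other at 0.892 to 0.986, and their mean correlated with IP over Total in WT at -0.51.

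**Figure D5:**
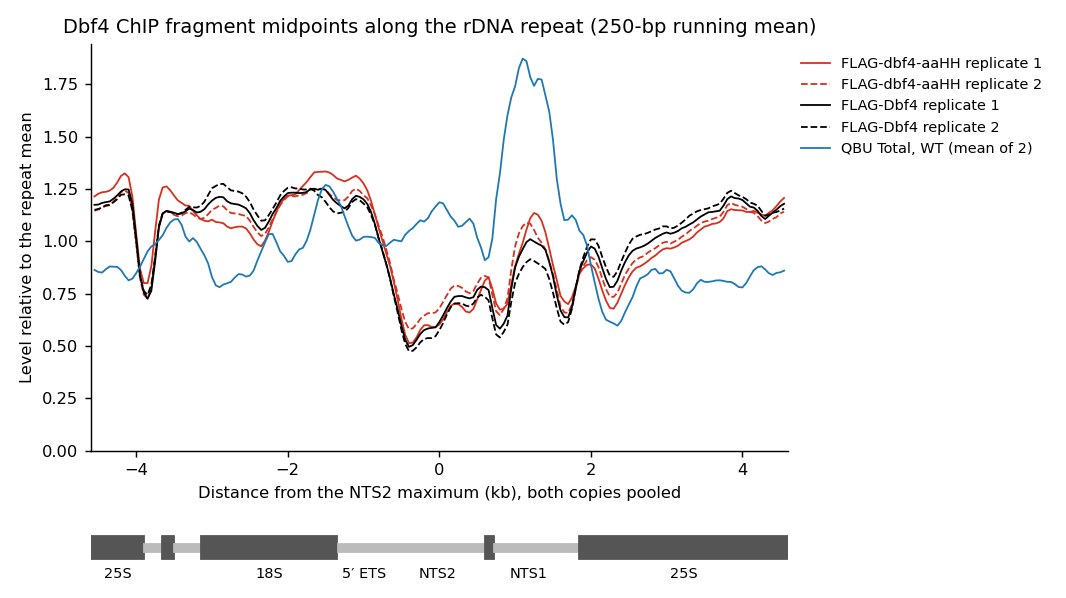
Midpoints of Dbf4 ChIP-seq fragments relative to the mean of the repeat (vertical axis, 250-bp running mean) against the distance in kb from the NTS2 maximum, with both assembly copies pooled, for FLAG-dbf4-aaHH (red) and FLAG-Dbf4 (black) with 2 replicates each, and the QBU Total of WT (blue). All 4 ChIP libraries reach their lowest level 400 bp from the NTS2 maximum on the 35S side, where Total has no trough.

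The 2 tagged proteins were not told apart in the rDNA. Of the 39 tiles, 0 were called between FLAG-dbf4-aaHH and FLAG-Dbf4 by edgeR's quasi-likelihood test or by DESeq2, and 0 had an unadjusted p under 0.05, while 11 tiles were lower and 1 higher of 26579 in the whole genome (0.0414% and 0.00376%). The rDNA log2 changes ran from -0.30 to 0.08 with a median of -0.12. The replicates of FLAG-Dbf4 set this value: the median was -0.51 without replicate 1 and 0.44 without replicate 2. With the rDNA total as library size, 15 of the 39 tiles had an unadjusted p under 0.05, out of 19 in the whole genome, and 0 passed the adjustment.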

How the data were processed

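The QBU files hold counts of reads per 50-bp bin, which the authors deposited unscaled and unsmoothed, a read being counted in each bin it touches. The ChIP-seq files, as deposited, list read ends whose score column is the mapping quality, from 1 to 42. The submitters' processing notes name Bowtie2, SAMtools and bedtools; versions, settings for multiply mapped reads and the genome build are not given in the sources used here. Feature positions are those of RefSeq R64, and repeat coordinates assume that the files use it.

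QBU counts were summed over 450-bp tiles and fitted with edgeR (version 4.0.16; R 4.3.3) for all 40 libraries at once, with culture as a block, an IP term per strain, the sum outside the rDNA as library size and a mean of at least 10 counts per library. ChIP-seq fragments up to 1000 bp were counted by midpoint and fitted likewise. DESeq2 (version 1.42.0) was an alternative. Profiles were computed with Python 3.11.15, numpy 2.4.6 and pandas 2.3.3, and drawn with matplotlib 3.10.9. Other origins were bins with a 1-kb mean IP of at least 2, the highest within 5 kb, with Total between 0.5 and 1.5. The tests were checked on simulated data. The text names the annotated parts of the repeat and its highest and lowest tile. The region, lists and tests were chosen with earlier results of these data known, and the common NTS2 and NTS1 maxima were placed on the profiles themselves. Equal replicate numbers were not taken to pair strains (correlations of deviations from -0.278 to 0.507 over 45 pairs of strains, 18 over 0.1 and 6 under -0.1). No sequencing batch was given, and no sequences were printed since no genome was used here.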

Additional observations from a re-analysis of the deposited data

Results flagged for a closer look

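In 3 comparisons the effect of a deletion differed between genetic backgrounds in a test of the difference itself (edgeR's quasi-likelihood test, adjusted p under 0.05). Each contains fkh1∆ or ctf19∆ against WT, strains whose cassettes lie at different loci, so cassette and genotype cannot be told apart. In the FKH1 comparisons read length differed as well. For the FKH1 deletion, 32 of the 39 rDNA tiles were called between dbf4-Zn*1 cells and WT cells, all with the higher change in dbf4-Zn*1 cells, where the whole genome had 2.84% higher and 4.36% lower. Between dbf4-Zn*2 cells and WT cells there were 30, again all higher, beside 2.93% higher and 5.11% lower genome-wide. Within the repeat, with the rDNA total as library size, these became 7 higher and 8 lower, and 5 higher and 8 lower. For the CTF19 deletion, 22 tiles were called between fkh1∆ fkh2-dsm cells and WT cells, 14 with the lower and 8 with the higher change in fkh1∆ fkh2-dsm cells (0.456% and 0.426% of the whole genome). The direction turned with the scaling, since TMM and DESeq2 each called 0 lower and 14 higher.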

How the results depend on the processing

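The count of rDNA tiles called against WT, both directions together, stayed within 1.5 times of the reported one with few exceptions. dbf4-Zn*1 had 23 under DESeq2, and fkh1∆ had 5 under TMM and 1 under DESeq2. The counts of fkh1∆ and fkh1∆ fkh2-dsm also moved further without WT replicate 1. The direction was less stable. Lower and higher tiles went from 39 and 0 to 12 and 21 in dbf4-Zn*1 with the rDNA total. Under TMM they went from 17 and 15 to 29 and 0 in dbf4∆C, and from 0 and 26 to 13 and 9 in ctf19∆. Between mutants, the triple mutant against fkh1∆ fkh2-dsm had 20 tiles called, but 6 under TMM, 2 under DESeq2 and 0 with the rDNA total as library size, which also gave 7 in place of 39 against ctf19∆. The differences between backgrounds came to 15 in place of 32 and 13 in place of 30 for FKH1 with the rDNA total, and to 14 in place of 22 for CTF19 under TMM and DESeq2. Leaving out 1 culture pair gave 17 to 22 in fkh1∆ and 17 to 23 in fkh1∆ fkh2-dsm, the lowest without WT replicate 1. With a replicate block across strains, the counts were 26 in fkh1∆ and 39 in dbf4-Zn*1, as without it, and dropping the pairing of IP with Total (no replicate block) gave 21 and 36. The ChIP-seq count stayed at 0, the replicate block included. The asymmetry in WT was -0.35 with flanks of 0.5 to 1.5 kb, -0.15 on the lower-coordinate copy alone, 1.27 at 1.5 to 3.5 kb and 2.5 about the NTS1 maximum, the last 2 settings being chosen after seeing the data. Its difference from WT moved as follows. With flanks of 0.5 to 1.5 kb it was -0.49 in dbf4∆C, -1.26 in dbf4-Zn*1, -1.11 in dbf4-Zn*2, -0.0423 in fkh1∆ dbf4-Zn*2, 0.0044 in fkh1∆, 0.0125 in ctf19∆ and -0.68 in ctf19∆ fkh1∆ fkh2-dsm. From IP alone it was -0.18 in fkh1∆ dbf4-Zn*1, -0.12 in fkh1∆ dbf4-Zn*2, 0.10 in fkh1∆ and -0.56 in ctf19∆ fkh1∆ fkh2-dsm. On the lower-coordinate copy it was -0.49 in dbf4∆C, 0.0121 in fkh1∆ dbf4-Zn*1, 0.0569 in fkh1∆ dbf4-Zn*2, 0.0892 in fkh1∆, -0.64 in fkh1∆ fkh2-dsm, 0.0095 in ctf19∆ and -0.55 in ctf19∆ fkh1∆ fkh2-dsm. At 1.5 to 3.5 kb it was -1.23 in dbf4∆C, -0.92 in dbf4-Zn*1, -0.81 in dbf4-Zn*2, -0.66 in fkh1∆ dbf4-Zn*1, -0.61 in fkh1∆ dbf4-Zn*2, -0.0315 in fkh1∆, -1.06 in fkh1∆ fkh2-dsm, -0.62 in ctf19∆ and -0.70 in ctf19∆ fkh1∆ fkh2-dsm, and about the NTS1 maximum, in the same order, -2.15, -1.36, -1.26, -1.53, -1.45, -0.55, -1.76, -1.19 and -1.37. The small differences of fkh1∆, ctf19∆ and the fkh1∆ dbf4-Zn* strains therefore have no settled sign, and the others kept theirs. The log2 change of the highest tile turned positive with the rDNA total as library size in dbf4-Zn*1 (0.67), dbf4-Zn*2 (0.55) and ctf19∆ fkh1∆ fkh2-dsm (0.0159). That of the lowest tile turned negative under TMM in dbf4∆C (-0.14), fkh1∆ fkh2-dsm (-0.0929) and ctf19∆ fkh1∆ fkh2-dsm (-0.25) and under DESeq2 (-0.0169, -0.15 and -0.28), and positive with the rDNA total in dbf4-Zn*1 (0.86). Changes that were not called, of dbf4-Zn*2 in the lowest and of fkh1∆ in the highest tile, also turned sign in some settings, the first to 0.91 with the rDNA total. The cause was not tested. With 2 cultures per strain, an exact test of single values could not reach significance, and depth limited the fkh1∆ fkh2-dsm profile most.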
